A study of Homo sapiens with 4 samples.

Results

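The messenger RNAs of 10 splicing regulators were followed in RNA co-precipitated with nuclear-directed SRP9 and in the matching whole-cell RNA. The SR genes were SRSF1 (ENSG00000136450), SRSF2 (ENSG00000161547), SRSF3 (ENSG00000112081), SRSF5 (ENSG00000100650), SRSF6 (ENSG00000124193) and SRSF7 (ENSG00000115875). The SR-related genes were SRSF11 (ENSG00000116754) and TRA2A (ENSG00000164548), and the hnRNP genes HNRNPA1 (ENSG00000135486) and HNRNPA2B1 (ENSG00000122566). They were taken by their Ensembl gene IDs, 10 of the 60676 IDs listed in each library, by a rule that names IDs and uses no measured value, although earlier results of these data were known when the list was drawn up. All 10 IDs were found in each of the 4 libraries and passed the filter on low counts. The files give IDs without names, so the names are those of the ID list itself.

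The libraries came from MiaPaCa cells, an established pancreatic cancer cell line. SRP9 belongs to the signal recognition particle, which directs secretory proteins to the endoplasmic reticulum, and contacts the Alu part of its RNA. One cell population carried variant 1 of SRP9 and the other carried variant 2, each with a FLAG tag and a signal for nuclear import, on a plasmid that also makes a green fluorescent reporter. Both populations were selected with Geneticin and sorted on the reporter, so both are pools of transfected cells, and nothing in the labels says that the cell's own SRP9 was removed. For each variant there was 1 library of co-precipitated RNA (RNA immunoprecipitation, RIP) and 1 of whole-cell RNA from the same experiment (input). The 4 groups thus held 1 library each, and a control precipitation from cells lacking the tag was not analysed here.

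SR proteins carry at least one RNA recognition motif and a region rich in arginine-serine repeats. They bind exonic enhancer sequences and help the spliceosome to recognise the neighbouring splice sites. The hnRNP A/B proteins bind many of the same transcripts and often oppose SR proteins by masking splice sites or exons. Many of these genes control their own amount through alternatively spliced exons that send the transcript to nonsense-mediated decay. Counts per gene ID do not separate transcripts that hold such exons or introns from the coding ones. The annotation release is not given, so whether reads within those exons or introns were counted is not known.

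RIP variant 1 had 3921361 counts in total and RIP variant 2 had 5211354. The inputs had 50454080 and 58815384, so depth differed up to 15.0 times. Levels are given as CPM (counts scaled to library size) after TMM scaling, which sets the libraries on a common scale. This scaling places RIP over input lower on the log2 scale than library totals would. The shift was -1.19 for variant 1 and -1.21 for variant 2. In the TMM-scaled fit given below, the median log2 fold change of RIP minus input was 3.65 over all 41622 tested IDs. It was -2.89 over the 2259 IDs in the range of input counts given below. A negative log2 value is thus not in itself a distance from the typical ID. Intervals are exact 95% Poisson intervals, or exact conditional intervals for ratios. They describe counting error alone, because amplified reads do not stand for separate molecules. CPM values are not divided by transcript length and are compared here only within a gene. The transfected gene and markers of the cell line were not checked, because the reference gene table of 59792 genes gives an Ensembl ID for 0 of them.

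All 10 genes were lower in RIP than in input with both variants. This was the background of their abundance. Of the 2259 tested IDs in the range of input counts given below, 2253 were lower with variant 1 and 2256 with variant 2. Of all 41622 tested IDs it was 12666 and 12058. Together the 10 genes held 0.387% of the counts in the input of variant 1 (95% exact binomial interval 0.385% to 0.389%). In the input of variant 2 they held 0.374% (0.372% to 0.375%). They held 0.0694% of the counts in RIP variant 1 (0.0668% to 0.0721%) and 0.0576% in RIP variant 2 (0.0555% to 0.0597%). On these library totals, the share in the input was 5.57 times that in RIP for variant 1 and 6.49 times for variant 2. HNRNPA1 and HNRNPA2B1 held most of the input counts of the 10 genes, and for this pair the ratios were 7.52 and 8.91, while for the 8 SR and SR-related genes they were 3.75 and 4.51. The pair was also more abundant in the inputs. In the fit given below, IDs in the pair's range of input counts had a median log2 fold change of -3.64. In the ranges of the other 8 genes it was -2.61 and -3.11. Whether abundance accounts for the contrast was not tested.

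RIP and input were compared across the constructs by edgeR's quasi-likelihood test, fitted on 41622 IDs with a call where the adjusted p (Benjamini-Hochberg) was under 0.05. The constructs served as the 2 samples of each fraction. They are different constructs and not replicates. The p-values thus set the difference against the spread between these constructs, which edgeR estimates with information shared across IDs. Spread between replicates is not covered. Of the 10 genes, 10 were called lower in RIP and 0 higher, while 15.8% of all tested IDs were called lower and 49.5% higher. The median fitted log2 fold change was -3.29 for the 10 genes and 3.65 over all tested IDs. The latter includes many IDs without a count in either input, for which RIP can only be equal or higher.

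A low RIP level was shared by nearly all transcripts with as many input counts. The 10 genes had summed input counts between 10975 and 178891. Among the 2259 tested IDs whose input counts summed to between 10000 and 200000, a range chosen after the data were seen, 98.8% were called lower in RIP and 0.0885% higher. Their median log2 fold change was -2.89, with 25% and 75% quantiles of -3.47 and -2.30. It went down with abundance, from -2.61 for 1283 IDs with 10000 to under 20000 summed input counts to -3.11 for 736 IDs up to 50000 and -3.64 for 240 IDs up to 200000. The call of all 10 genes is therefore at the background of their abundance, and how far each gene lay from this background is given beside its values. A change of scaling shifts the gene and this background alike. Each range is wide, so a gene is not matched to the IDs within its range. HNRNPA2B1 (178891) lay near the top of its range and TRA2A (10975) near the bottom.

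**Figure D1:**
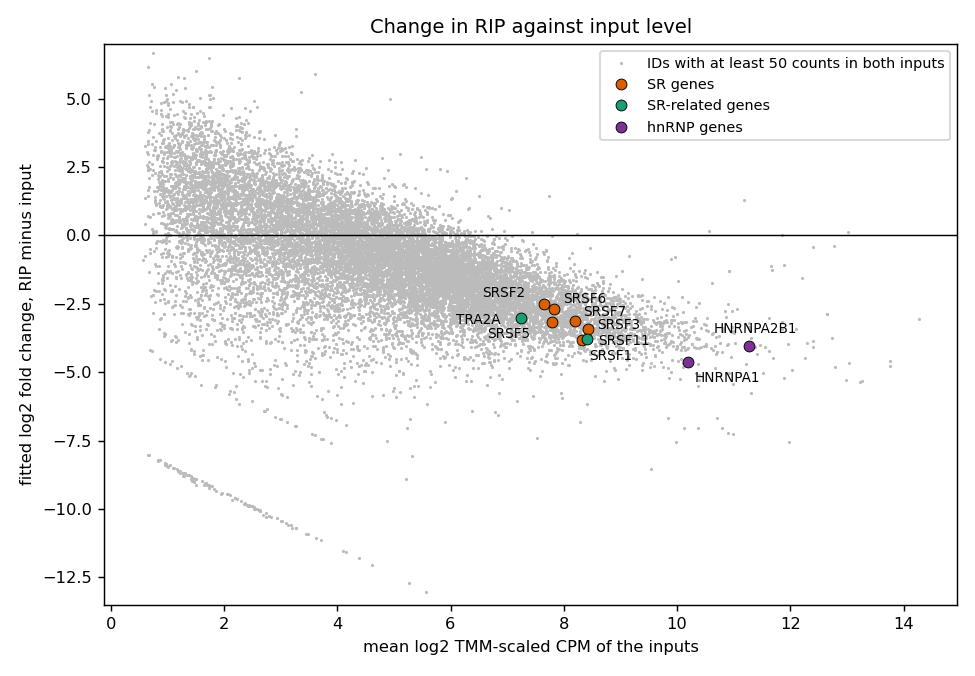
Fitted log2 fold change of RIP minus input (vertical) against the mean log2 TMM-scaled CPM of the inputs (horizontal). Grey points are the 15436 tested IDs that reached 50 counts in each input and coloured points are the 10 genes by class. The cloud slopes down to the right, and the genes lie in its lower right part between -4.64 and -2.52. Both axes use the inputs, so part of the slope arises from the axes themselves.

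The same was read with libraries that share no counts with the grouping. Among 2093 IDs whose count in the input of variant 1 lay within the range of the 10 genes, the median log2 ratio of RIP over input with variant 2 was -2.94, and 8 of the 10 genes were below it. Among 2018 IDs grouped in the same way on the input of variant 2, the median with variant 1 was -2.94 and 7 of the 10 genes were below it. The medians of the 10 genes were -3.74 with variant 2 and -3.35 with variant 1. Each group spans the whole range of the 10 genes and is not matched to them within it. By summed input counts, 4 of the 10 genes had 10000 to under 20000, as did 1283 of the 2259 IDs above. The fold change went down with abundance, so part of this distance may come from abundance, which was not tested.

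HNRNPA1, a repressor of exon inclusion that binds splicing silencers, had the lowest fitted fold change of the 10. It had 45019 and 39184 counts in the inputs of variants 1 and 2, or 1364 and 1003 TMM-scaled CPM. RIP variant 1 had 286 counts (49.2 CPM) and RIP variant 2 had 358 (45.9 CPM). Both RIP values were far below both inputs, and the RIP libraries were closer to each other than the inputs. The input level was 27.7 times the RIP level for variant 1 (24.7 to 31.3) and 21.9 times for variant 2 (19.7 to 24.3). The fitted log2 fold change was -4.64 ± 0.27 (SE, edgeR adjusted p = 0.000597). This was -1.003 relative to the median of the 240 IDs of like abundance, of which 12.1% were lower still. The RefSeq gene table (GRCh38.p14) names 75 pseudogenes after HNRNPA1, and its values held a fraction of a read in all 4 libraries. Whether reads were shared with these copies was not tested, so its level is uncertain.

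HNRNPA2B1, which encodes the closely related A2 and B1 proteins, had the next lowest value in the fit over both constructs, though SRSF7 (-4.05) and SRSF1 (-3.96) had lower log2 ratios than HNRNPA2B1 (-3.82) with variant 1, and SRSF11 (-4.35) than HNRNPA2B1 (-4.28) with variant 2. Its inputs held 82388 and 96503 counts, or 2496 and 2469 CPM, and its RIP libraries 1030 and 991 counts, or 177 and 127 CPM. The inputs were almost equal, and RIP variant 1 was 1.40 times RIP variant 2 (1.28 to 1.52). The input exceeded RIP 14.1 times for variant 1 and 19.4 times for variant 2. The fitted log2 fold change was -4.03 ± 0.26 (SE, edgeR adjusted p = 0.000597), which was -0.39 relative to IDs of like abundance. The values of HNRNPA2B1 were whole in all 4 libraries, and no pseudogene in the RefSeq table carries its name.

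**Figure D2:**
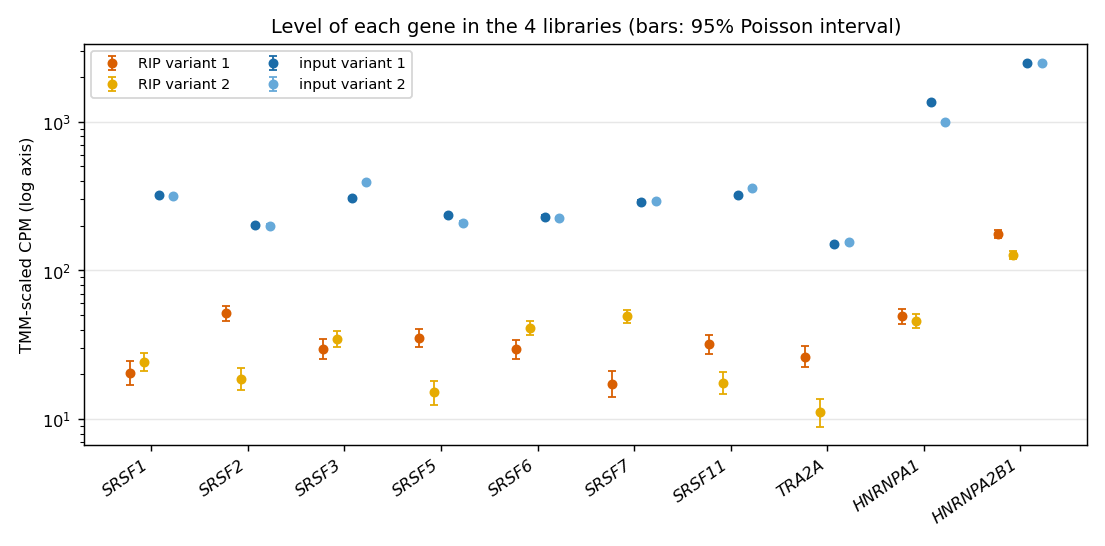
TMM-scaled CPM on a log axis for each gene in RIP variant 1, RIP variant 2 and both inputs, with 95% exact Poisson intervals for counting error. For each gene both RIP values lie below both input values, and the RIP values of SRSF2, SRSF5, SRSF7 and TRA2A are the furthest apart.

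Among the SR genes, SRSF1, the founding member of the family and a known oncogene, had the lowest fitted value over both constructs. With variant 1 alone SRSF7 was lower (-4.05 against -3.96), and with variant 2 alone SRSF5 was (-3.78 against -3.70). Its inputs were at 321 and 317 CPM, from 10588 and 12383 counts, and its RIP libraries at 20.5 and 24.3 CPM, from 119 and 190 counts. The inputs differed little, and the intervals of the RIP values overlapped (17.0 to 24.5 and 21.0 to 28.0 CPM). The fitted log2 fold change was -3.83 ± 0.26 (SE, edgeR adjusted p = 0.000597). SRSF1 lay -0.72 from the median of the 736 IDs of like abundance, and on the lower side with each variant (-0.83 and -0.59). Values of SRSF1 held fractions of a read in all 4 libraries. In the RefSeq table a noncoding gene, LOC101929185, overlaps it and 1 pseudogene is named after it.

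SRSF3, the smallest SR protein, which also serves mRNA export, had 305 and 391 CPM in the inputs and 29.6 and 34.7 CPM in the RIP libraries. Variant 2 was the higher of the pair in both fractions. The variants gave nearly the same log2 ratio of RIP over input, -3.36 and -3.49, and the fitted value was -3.44 ± 0.27 (SE, edgeR adjusted p = 0.000665). SRSF3 was thus slightly below IDs of like abundance with both variants (-0.23 and -0.38). The RefSeq table names 5 pseudogenes after SRSF3, and its values held a fraction of a read in 2 libraries.

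SRSF6, which promotes inclusion of enhancer-dependent exons, had 229 and 224 CPM in the inputs and 29.5 and 40.9 CPM in the RIP libraries. After SRSF2 it had the smallest fitted change, -2.68 ± 0.28 (SE, edgeR adjusted p = 0.00122). SRSF6 lay close to the median of the 1283 IDs of like abundance in the fit, with a distance of -0.07. It lay below them with variant 1 (-0.36) and above them with variant 2 (0.17). Its values held fractions of a read in all 4 libraries, and 2 pseudogenes are named after it.

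SRSF2, an SR protein that stays in the nucleus, had the smallest change in the fit over both constructs. Its inputs were at 201 and 200.3 CPM and its RIP libraries at 51.6 and 18.6 CPM (300 and 146 counts, to the nearest read). The inputs were alike, while RIP variant 1 was well above RIP variant 2. The input level was 3.91 times the RIP level for variant 1 and 10.7 times for variant 2, and the fitted log2 fold change was -2.52 ± 0.48 (SE, edgeR adjusted p = 0.00670). Without RIP variant 1 it was -3.45, and then SRSF6, SRSF7 and SRSF3 had smaller changes than SRSF2, and without RIP variant 2 it was -1.94. SRSF2 lay above IDs of like abundance with variant 1 (0.63) and below them with variant 2 (-0.79). SRSF2 overlaps MIR636 and MFSD11 in the RefSeq table, 1 pseudogene is named after it, and its values held fractions of a read in all 4 libraries. The source of these fractions was not tested.

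SRSF5, another SR protein that binds exonic enhancers, showed the same order of the RIP libraries. It had 235 and 209 CPM in the inputs and 35.1 and 15.1 CPM in RIP variants 1 and 2. The fitted log2 fold change was -3.15 ± 0.43 (SE, edgeR adjusted p = 0.00275), and -3.90 without RIP variant 1. With variant 1 SRSF5 lay -0.15 from IDs of like abundance, and with variant 2 -1.16. Its values were whole in all 4 libraries, although the noncoding gene LOC100289511 overlaps it in the RefSeq table.

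SRSF7, which has a zinc knuckle beside its RNA recognition motif, showed the opposite order. It had 290 and 294 CPM in the inputs and 17.4 and 49.2 CPM in RIP variants 1 and 2 (101 and 384 counts). The fitted log2 fold change was -3.13 ± 0.49 (SE, edgeR adjusted p = 0.00403), and -4.05 without RIP variant 2. SRSF7 lay -0.92 from IDs of like abundance with variant 1 and 0.53 with variant 2, so its place relative to them turned with the construct.

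The SR-related genes also had the higher RIP level with variant 1. SRSF11, an SR-related protein that associates with the factor recognising the 3′ splice site, had 323 and 359 CPM in the inputs and 31.8 and 17.6 CPM in RIP variants 1 and 2. Its fitted log2 fold change was -3.79 ± 0.36 (SE, edgeR adjusted p = 0.000954). Its values were whole in all 4 libraries, and 1 pseudogene is named after it. TRA2A, a homolog of the fly sex determination factor Transformer 2, had 150 and 154 CPM in the inputs and 26.3 and 11.1 CPM in the RIP libraries. Its fitted log2 fold change was -3.03 ± 0.45 (SE, edgeR adjusted p = 0.00334), and -3.80 without RIP variant 1. With variant 2 both lay more than 2-fold below IDs of like abundance (-1.24 for SRSF11 and -1.16 for TRA2A), and with variant 1 near them (-0.20 and 0.08).

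**Figure D3:**
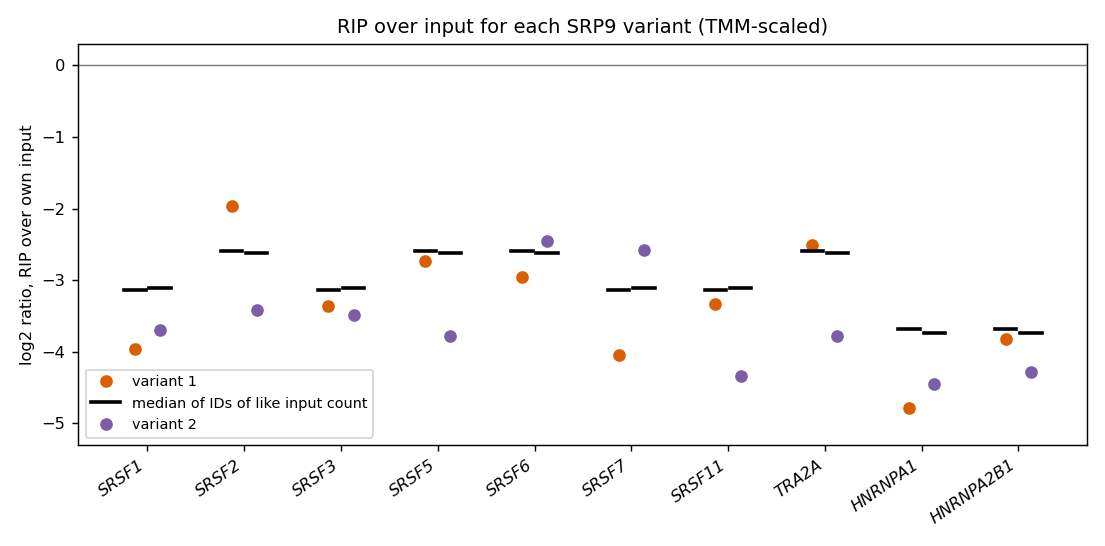
The log2 ratio of RIP over its own input for each gene and variant (points), with TMM scaling. Black bars give the median of the same ratio over the IDs in the gene's range of summed input counts. All points lie under 0, and 8 of 10 lie under their bar with variant 1 and 8 of 10 with variant 2.

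Each variant was also set against its own input without a test. With variant 1, 10 of 10 genes were at least 2-fold lower in RIP, as were 23.1% of all tested IDs and 97.6% of those in the abundance range. On library totals it was 9 of 10, with SRSF2 at -0.77. With variant 2 it was again 10 of 10, against 21.2% and 98.1%. The log2 ratios ran from -4.79 for HNRNPA1 to -1.96 for SRSF2 with variant 1, and from -4.45 for HNRNPA1 to -2.45 for SRSF6 with variant 2. HNRNPA1 was thus the lowest of the 10 with each construct, while the gene with the highest ratio differed. The genes next to each other in the order of fitted values, from HNRNPA2B1 to SRSF2, were at most 0.36 apart. Their standard errors ran from 0.26 to 0.49. These belong to single genes, and no test compared one gene with another, so the order of neighbours is not settled. HNRNPA1 was 0.61 below HNRNPA2B1, and this gap was not tested either.

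To set the genes against transcripts of like abundance, the same 2259 IDs were scaled and fitted alone. In this fit 10.4% of IDs were called lower and 14.2% higher. Of the 10 genes, 3 were called lower. HNRNPA1 had a log2 fold change of -1.76 ± 0.24 (SE, edgeR adjusted p = 0.0103), HNRNPA2B1 -1.16 ± 0.26 (adjusted p = 0.0315) and SRSF1 -0.95 ± 0.22 (adjusted p = 0.0323). For these 3 genes the range spans many IDs of lower abundance, whose log2 fold changes were less negative by median. The distances given above from IDs of each gene's own range were smaller. They were -1.003 for HNRNPA1 and -0.39 for HNRNPA2B1 (240 IDs), and -0.72 for SRSF1 (736 IDs). Those ranges are wide as well, and HNRNPA2B1 lay near the top of its own. Whether abundance accounts for the remaining distances was not tested. The other 7 genes did not pass, with SRSF11 at -0.92 (adjusted p = 0.0908) and SRSF3 at -0.56 (adjusted p = 0.139). SRSF2 and SRSF6 had positive values, 0.35 and 0.20 (adjusted p = 0.616 and 0.585). A p above the threshold does not show that these genes were bound like the rest.

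**Figure D4:**
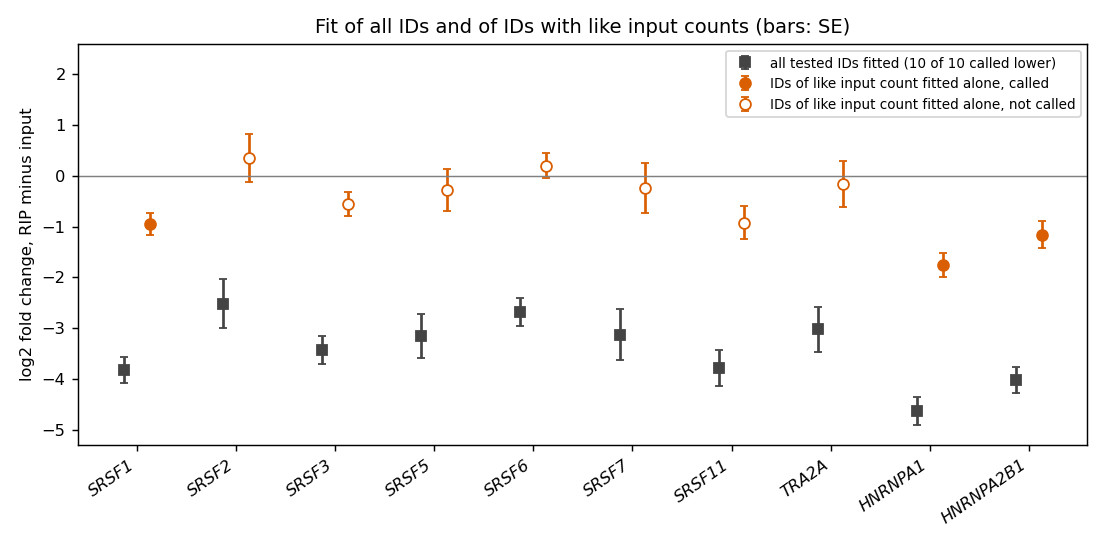
Log2 fold change of RIP minus input with SE for each gene in the fit of all 41622 tested IDs (squares) and in the fit of the 2259 IDs of like input count alone (circles, filled where called). In the first fit all 10 genes lie between -4.64 and -2.52, and in the second between -1.76 and 0.35, with HNRNPA1, HNRNPA2B1 and SRSF1 called.

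The RIP libraries of the variants differed more for these genes than the inputs did. At least 2-fold apart between the RIP libraries were 4 of 10 genes, against 41.5% of all tested IDs and 16.6% of the IDs in the abundance range. Between the inputs it was 0 of 10, against 24.9% and 0.133%. The SD of the log2 difference over the 10 genes was 0.93 for the RIP libraries and 0.21 for the inputs, and over the abundance range 0.77 and 0.18. The RIP libraries were also shallower, and each value rests on 1 library, so there is no test of a difference between the variants.

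Between the RIP libraries SRSF2 was 2.77 times higher with variant 1 (2.26 to 3.38), SRSF5 2.32 times (1.84 to 2.94) and TRA2A 2.36 times (1.80 to 3.11). SRSF7 went the other way and was 2.83 times higher in RIP variant 2 (2.27 to 3.56). The inputs of these 4 genes differed by at most 1.12 times, as seen for SRSF5. SRSF11 was 1.81 times higher in RIP variant 1 (1.45 to 2.28), short of 2-fold, while its input was 1.11 times higher in variant 2. SRSF6 was 1.39 times higher in RIP variant 2 (1.15 to 1.68). For SRSF1, SRSF3 and HNRNPA1 the interval of the ratio between the RIP libraries included 1. Counting error alone was thus exceeded for 7 of the 10 genes, as it was for 71.1% of the IDs in the abundance range.

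The inputs differed most for HNRNPA1 and SRSF3. HNRNPA1 was 1.36 times higher in the input of variant 1 (1.34 to 1.38) and SRSF3 1.28 times higher in that of variant 2 (1.25 to 1.32). For HNRNPA1 the RIP libraries did not follow this difference, with a ratio of 1.07 (0.915 to 1.26). For SRSF3 the RIP ratio went the same way, at 1.17 times higher in variant 2 (0.966 to 1.43).

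**Figure D5:**
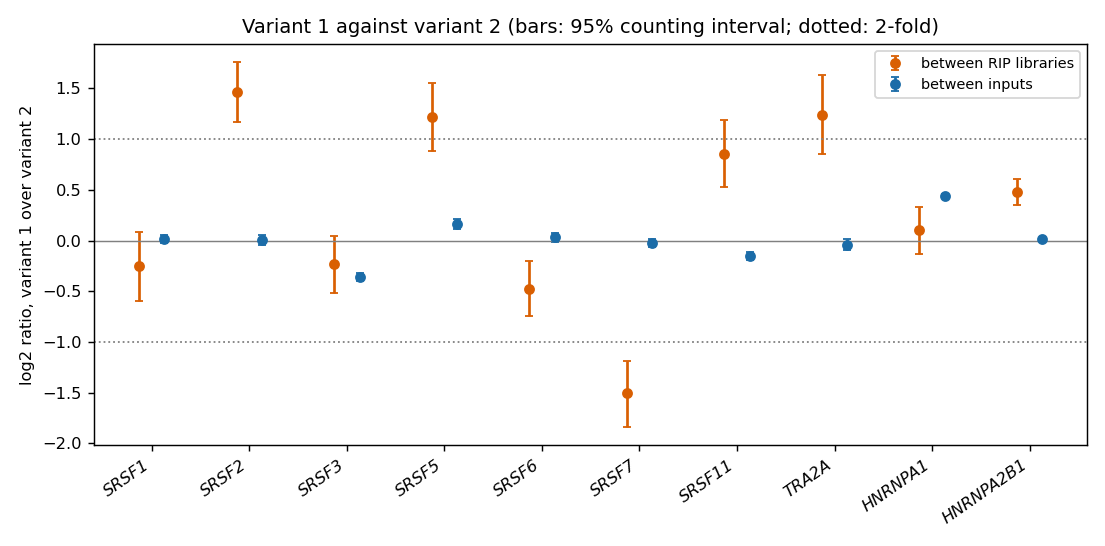
Log2 ratio of variant 1 over variant 2 for each gene, shown for the RIP libraries and for the inputs, with 95% exact conditional intervals for counting error and dotted lines at 2-fold. SRSF2, SRSF5 and TRA2A lie above the upper line and SRSF7 below the lower one between the RIP libraries, while the inputs lie between -0.36 and 0.44.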

How the data were processed

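RNA was sequenced in 4 libraries, 1 RIP and 1 input for each of 2 SRP9 variants. Per the submitters' processing notes, HISAT2 2.1.0, featureCounts, Subread 2.0.0 and the build GRCh38.p13 were used. The annotation release, strand setting and treatment of multi-mapping reads remain not given in the sources used here. Deposited by the authors were estimated counts per Ensembl gene ID, of which 13.9% to 18.0% per library hold a fraction of a read. Counts were rounded, filtered by fraction (edgeR's expression filter, minimum count 10) and fitted over all IDs with edgeR 4.0.16 in R 4.3.3 (TMM scaling, quasi-likelihood test, 2 residual degrees of freedom). Each edgeR SE is the absolute log2 fold change over the square root of the test's F statistic. Ratios between single libraries used a prior count of 2. The text names all 10 genes. Of 45 further splicing genes listed for description, none could be matched to an ID through the reference table, so they were not analysed here. The 10 genes and lists were chosen with earlier results of these data known, although the rule itself uses no measured value. On simulated counts for RIP against input (41622 IDs), 100 IDs were changed at each fold, evenly up and down, and all others were left unchanged. There 91% of 16-fold and 47% of 4-fold changes were recovered, and 6.76% of the calls were false. In the real data 15.8% of IDs were called lower and 49.5% higher, so the simulated rates are not error rates of the real calls. Alternatives covered scaling, filters, ID sets, DESeq2 1.42.0, the construct as a block and leaving out each library. By the labels, a RIP library and its input come from the same transfected cells. The difference between the RIP libraries and that between the inputs had a correlation of -0.0045 across tested IDs, with only 2 pairs.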

Additional observations from a re-analysis of the deposited data

How the results depend on the processing

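The count of 10 genes called lower in RIP held under library totals, DESeq2 size factors, both other filters and the DESeq2 Wald test. It also held in the fit of IDs that reached 50 counts in each input. The share of all fitted IDs called lower ran from 7.72% on library totals to 23.7% in that last fit. Without each library in turn, the fitted log2 fold changes of all 10 genes stayed negative. Sizes moved more. The median log2 fold change of the 10 genes was -3.29 in the main fit and -2.09 on library totals. In the fit of IDs that reached 50 counts in each input it was -2.17. Every gene was less negative in both of these settings than in the main fit. Leaving out a library moved sizes by over 1.5 times for SRSF2 (-3.45), SRSF5 (-3.90) and TRA2A (-3.80) without RIP variant 1. The same held for SRSF7 (-4.05) without RIP variant 2. With the construct as replicate block, 10 were called as well (edgeR adjusted p 0.000412 to 0.00244), against 12.9% of all tested IDs. Pairing thus changed no call among the 10. The highest adjusted p over these settings was 0.0459, for SRSF2 on library totals. Within variant 1, 9 in place of 10 genes were at least 2-fold lower on library totals (SRSF2 at -0.77), against 14.2% of all tested IDs. It was also 9 with scaling on IDs that reached 50 counts in each input (SRSF2 at -0.84), against 14.7%. Alternatives chosen after seeing the data changed counts further. With IDs from 10000 to under 200000 summed input counts fitted alone, 3 were called lower, against 10.4% of the IDs fitted. In that fit SRSF2 (0.35) and SRSF6 (0.20) turned sign. With scaling on those IDs, 3 genes were at least 2-fold lower with variant 1, against 5.88% of all tested IDs. With variant 2 it was 3 genes, against 2.88%. The log2 ratios turned for SRSF2 (0.91), SRSF5 (0.13) and TRA2A (0.36) with variant 1 and for SRSF6 (0.43) and SRSF7 (0.30) with variant 2. That scaling centres on IDs that were mostly lower in RIP. With whole-valued IDs alone, 5 of 5 genes left were called lower, against 13.1% of the IDs fitted. The counts of genes at least 2-fold apart between variants were the same under each scaling and prior count tried. Depth in RIP (87 to 1030 counts per gene) limits the precision of each ratio.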
